A study of Mus musculus with 6 samples.

Results

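Tight junctions are the seals between neighbouring epithelial cells. In the alveolus they keep the airspace fluid apart from the tissue beneath while letting chosen ions pass. Their strands are built from claudins, a family of membrane proteins that sets which ions cross, together with occludin and junctional adhesion molecules. Cytoplasmic scaffolds of the zonula occludens family tie the strands to actin. Alveolar epithelium is known for claudin-3, claudin-4 and claudin-18, and the lung-specific form of claudin-18 is needed for a tight alveolar barrier. The genes described here were taken by name: the claudin genes Cldn3, Cldn4, Cldn7 and Cldn18, the occludin gene Ocln, the junctional adhesion molecule A gene F11r, and the scaffold genes Tjp1 (zonula occludens 1) and Tjp3 (zonula occludens 3). All 8 were present among the 23337 gene symbols of the count tables, and all 8 were among the 12899 genes with enough counts to test.

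The counts came from sorted type II (AT2) cells of mouse alveoli, the surfactant-secreting cells that also renew the flat alveolar type I (AT1) cells. The 3 mutant libraries had the genotype SpC-CreER/Dlk1flox/ROSA-Tomato and the 3 wild-type libraries SpC-CreER/ROSA-Tomato, so the controls also carried the inducible Cre, driven by the surfactant protein C promoter, and the Tomato reporter. Dlk1 encodes a Delta-like membrane protein of the Notch pathway, and the floxed allele is deleted only in cells where that Cre is active. All mice had acute lung injury caused by Pseudomonas aeruginosa, all samples were labelled 10 days after injury, and Tomato-positive cells were sorted. A period of 8 days in culture is also named in the labels, so whether RNA was taken from fresh or cultured cells is not settled by the labels, which give neither the age or sex of the mice nor whether each library came from 1 animal. The p-values therefore measure the spread between these samples.

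Library totals ran from 22511461 to 30695994 counts. Dlk1 itself had at most 2 counts in any library of either genotype, too few to check the labels. The 9 AT2 markers were abundant in every library, with a summed level of 127259 to 157899 CPM (counts scaled to a common library total). Mutant 1 stood apart. Its Pearson correlations with the other libraries across genes (genes are not independent replicates) were 0.933 to 0.947, against 0.980 to 0.989 among the remaining pairs. It held 16124 CPM of the 8 club cell markers against 5435 to 8227 CPM in the other 5 libraries, and it had the highest level of all 8 leukocyte, all 8 ciliated, all 6 fibroblast, 7 of 8 endothelial and all 4 mesothelial markers. Basal cell markers summed to at most 1.499 CPM in any library, with Krt14 at 0 in all 6. Because mutant 1 stood apart, results are also given without it. Wild type 2 was the only library with abundant Xist (184.6 CPM against at most 2.93 CPM). It was also lowest in Ddx3y, a gene of the Y chromosome, at 2.88 CPM against 49.8 to 78.2 CPM in the other libraries. By these genes wild type 2 differed in sex from the other libraries, so sex was not balanced between the groups. The part of sex in the results was not tested. In bulk samples, fewer cells of a type and less RNA per cell cannot be told apart.

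Cldn3 and Cldn4 are next to each other on mouse chromosome 5, with no other coding gene between them in RefSeq, and they encode closely related claudins, yet they were the most and the least abundant of the 8 genes per kilobase. The 250 bases before each RefSeq start are shown for these neighbours because their levels differed so widely (RefSeq, GRCm38.p6, 5′ to 3′ on the gene's own strand). Capitals mark the GC box, GGGCGG on either strand. The Cldn3 window is chr5:134985964-134986213 on the plus strand and the Cldn4 window chr5:134946935-134947184 on the minus strand.
Cldn3: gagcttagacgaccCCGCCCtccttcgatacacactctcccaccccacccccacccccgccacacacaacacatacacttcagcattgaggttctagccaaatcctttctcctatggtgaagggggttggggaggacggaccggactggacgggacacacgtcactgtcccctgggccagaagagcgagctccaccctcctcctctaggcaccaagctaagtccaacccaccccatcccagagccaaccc
Cldn4: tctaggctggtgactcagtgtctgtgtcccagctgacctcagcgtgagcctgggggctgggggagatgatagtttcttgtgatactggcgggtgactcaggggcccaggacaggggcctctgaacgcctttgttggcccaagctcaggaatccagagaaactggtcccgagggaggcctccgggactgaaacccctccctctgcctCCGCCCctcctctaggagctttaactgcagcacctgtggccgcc
Each window held 1 GC box, a motif found in 32.7% of 32851 RefSeq windows of that length. Neither held the TATA box letters TATAAA (12.4% of windows) or the Grainyhead-like letters AACNNGTT (3.64% of windows), both searched on either strand, and none of the 12 windows listed for the 8 genes held either motif. Cldn4 had 2 E-boxes (CANNTG, in 66.2% of windows) and Cldn3 had 0. The GC content was 60.8% for Cldn3 and 62.0% for Cldn4, against a median of 52.4% over all windows. In these counted features the windows of the 2 neighbours were alike except for the E-boxes. Cldn7, Cldn18, Ocln and Tjp3 each had 2 listed starts, and counts per gene symbol do not separate them, so the lung and stomach forms of Cldn18 cannot be told apart here.

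Levels between genes were compared per kilobase of exon, using exon lengths from GENCODE M21. Claudin-3 and claudin-18 transcripts dominated the tight junction set. Cldn3 had 268 CPM per kilobase on average over the 6 libraries (range 239.7 to 299.6) and Cldn18 had 247 (215 to 277). These ranges overlapped, and Cldn3 was the higher in 5 of 6 libraries. F11r followed at 86.7 CPM per kilobase, then Cldn7 at 55.7, Tjp1 at 44.5, Tjp3 at 28.3 and Ocln at 12.6. Cldn4 was last at 2.70 CPM per kilobase (1.54 to 3.88). Apart from Cldn3 with Cldn18 and Cldn7 with Tjp1, neighbours in this order did not overlap between their ranges over the 6 libraries, and Cldn7 exceeded Tjp1 within each library. With the longest coding transcript in place of all exons the order of the 8 genes did not change, with Cldn3 at 268 and Cldn18 at 264 CPM per kilobase.

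As a share of the summed per-kilobase level of 23 claudin genes, Cldn3 and Cldn18 together made up most of that sum in each library. The symbol Cldn25 was left out of the sum, since it had no per-kilobase level here. Cldn3 contributed 43.8% ± 3.18 in the mutant and 46.5% ± 2.13 in the wild-type libraries, and Cldn18 43.0% ± 3.50 and 40.2% ± 1.94 (SD, n = 3 each). Cldn7 contributed 8.85% ± 0.325 and 9.94% ± 0.383. Cldn4 contributed less than 1 part in 100, at 0.488% ± 0.197 and 0.429% ± 0.136. Among the summed claudins outside the 8 genes, Cldn12 had the largest share, at 2.60% ± 0.353 and 2.25% ± 0.213. How Cldn25 would rank beside it per kilobase was not tested.

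**Figure D1:**
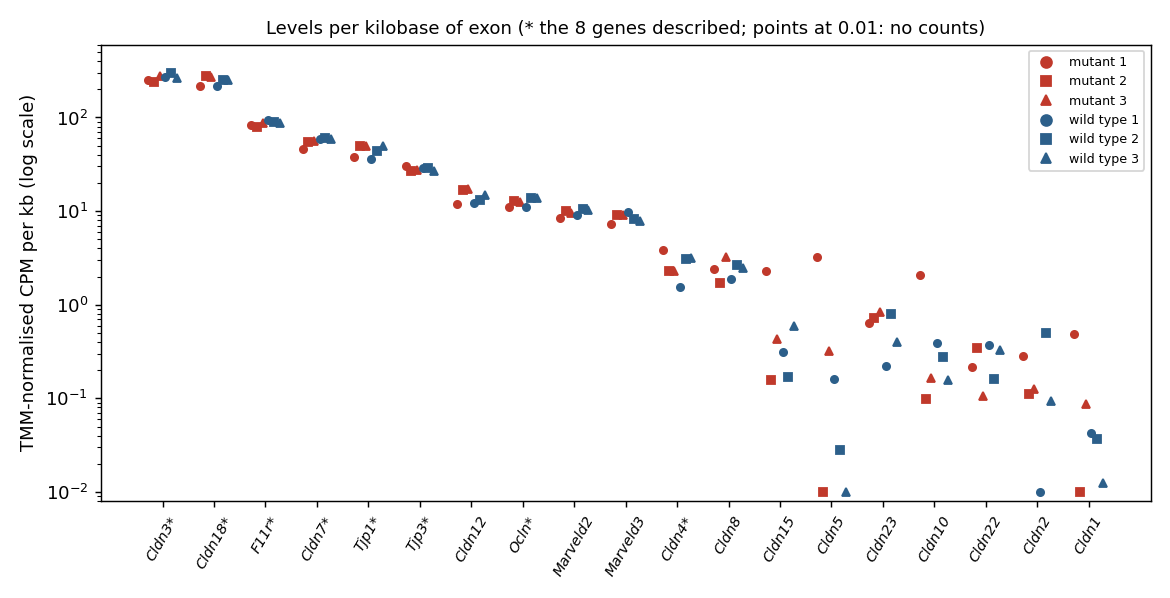
Level of tight junction genes per kilobase of exon (TMM-normalised CPM per kilobase, log axis) in each of the 6 libraries, ordered by mean, with red for mutant and blue for wild type. Cldn3 and Cldn18 lead at 268 and 247 on average, Cldn4 lies at 2.70, and Cldn15, Cldn5, Cldn10 and Cldn1 have their highest point in mutant 1.

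Mutant libraries were set against wild-type libraries to compare expression after injury between the 2 genotypes. Dlk1 had at most 2 counts in any library of either genotype, so its loss cannot be seen in these counts. The fitted differences of the 8 tight junction genes lay between 0.877-fold (Cldn7) and 1.09-fold (Cldn4). By edgeR's quasi-likelihood test none of the 8 reached an adjusted p under 0.05, and 0.0% of the 12899 tested genes did. At an unadjusted p under 0.05 the count among the 8 was also 0 in edgeR, in DESeq2 and in limma-voom, while 6.58% (3.69% higher and 2.89% lower), 6.21% and 10.0% of all genes were below it in those tests. DESeq2 called 46 genes (0.306%) and limma-voom 0 after adjustment, and no tight junction gene was among them. Of the 8 genes 3 lay above 0 on the log2 scale and 5 below, with a median of -0.05, while 51.1% of all tested genes lay above 0 and their median was 0.005. In 7 of the 8, the 95% interval lay between 0.758-fold and 1.36-fold, and Cldn4 was measured less tightly. A p above the threshold does not show that the groups were equal. Values below are TMM-normalised CPM (CPM scaled by edgeR's trimmed mean of M values), given for mutants 1, 2 and 3 and then for wild types 1, 2 and 3.

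**Figure D2:**
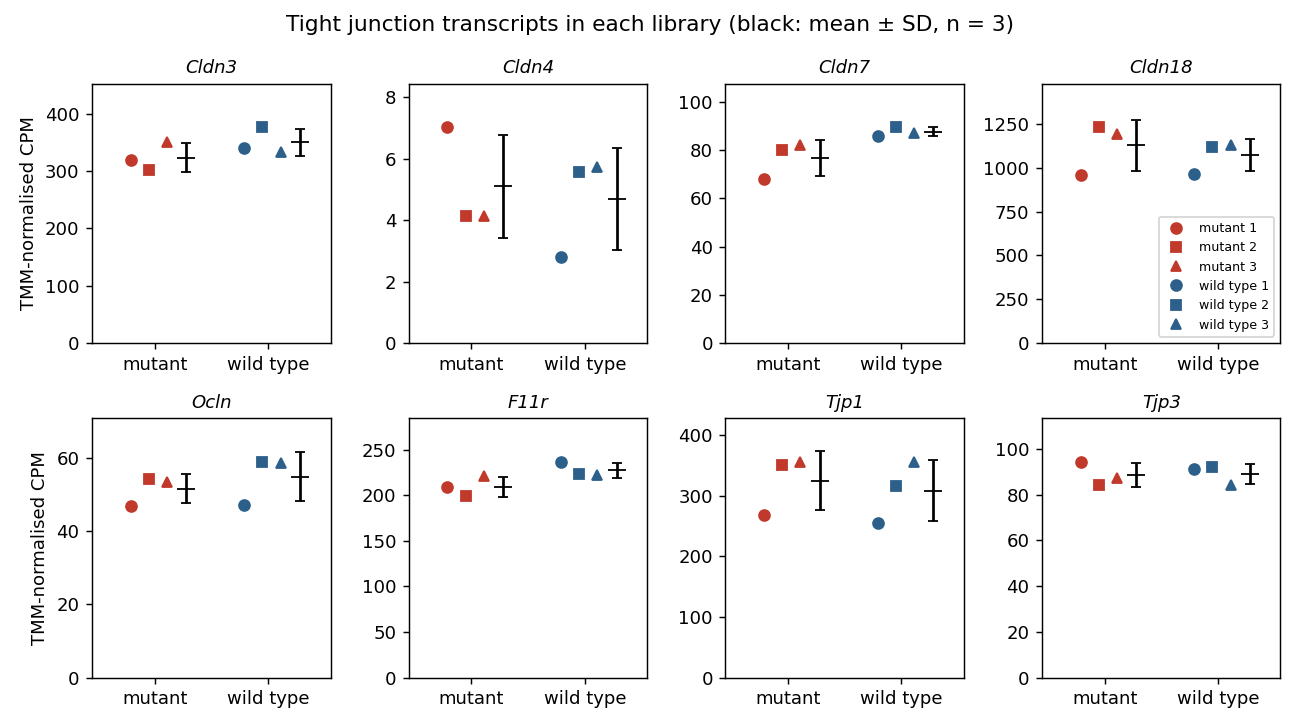
TMM-normalised CPM of the 8 tight junction genes in each library (points, with symbols for replicates 1 to 3), with the mean and SD of each group in black. The axes start at 0, and the mutant points lie below the wild-type points without overlap only for Cldn7 and F11r.

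Among the claudins, Cldn18, the most lung-specific of the family, stood at 959.6, 1234 and 1191 CPM in the mutants, against 965.9, 1117 and 1131 CPM in the wild types. The groups overlapped, with the number 1 library lowest in each. Its log2 fold change was 0.075 ± 0.13 (SE), with a 95% interval of -0.23 to 0.38. Without mutant 1 it was 0.18, and without wild type 1 or mutant 2 it was 0.006 or 0.002, so its size rested on single libraries.

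Cldn3, on average the most abundant of the 8 genes per kilobase, stood at 318.6, 301.8 and 350.6 CPM in the mutants. In the wild types it stood at 340.0, 377.2 and 332.6 CPM. The groups overlapped, since mutant 3 lay above wild types 1 and 3. Its log2 fold change was -0.11 ± 0.094 (95% interval -0.33 to 0.11), and it ranged from -0.175 to -0.059 when single libraries were left out, lowest without mutant 3 and highest without wild type 2.

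Cldn7, a claudin found along the sides of many epithelial cells as well as in their junctions, had the smallest p-value of the 8 genes. It stood at 68.1, 80.2 and 82.2 CPM in the mutants, against 86.1, 89.8 and 87.1 CPM in the wild types. All 3 mutants lay below all 3 wild types, with mutant 1 the furthest below. The log2 fold change was -0.19 ± 0.089 (95% interval -0.40 to 0.02), the unadjusted p 0.0703 and edgeR's adjusted p 0.739. Without mutant 1 it was -0.11. Against Cldn18 in the same library, the per-kilobase ratio of Cldn7 was 0.214, 0.196 and 0.208 for the mutants, against 0.269, 0.243 and 0.232 for the wild types. Of 7 such ratios computed between junction genes, this was the only one whose groups did not overlap, and it was not tested. Cldn7 has 1477 exon bases and Cldn18 4456, and libraries differed in the levels of long against short transcripts, as given below. The part of that difference in this ratio was not tested.

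Cldn4 is a claudin that rises in injured alveolar epithelium and marks the keratin-rich state between AT2 and AT1 cells. It was scarce here, with 231, 97 and 117 counts in the mutants against 61, 139 and 141 counts in the wild types. These corresponded to 7.04, 4.15 and 4.13 CPM and to 2.79, 5.57 and 5.74 CPM. Mutant 1 was the highest and wild type 1 the lowest library, so the number 1 libraries were the extremes of both groups. Counting error alone gave exact Poisson 95% intervals of 6.16 to 8.01 CPM for mutant 1 and 2.13 to 3.58 CPM for wild type 1, with the intervals of the other 4 between 3.37 and 6.77 CPM. The 2 extreme libraries thus differed by more than counting error. Its log2 fold change was 0.12 ± 0.37 (95% interval -0.76 to 0.999), which spans from 0.591 to 2.0 times the wild-type level. The sign turned to -0.185 without mutant 1 and to -0.148 without wild type 1.

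Club cell, ciliated and other airway epithelia also express Cldn4. All 8 ciliated and 7 of 8 club cell markers were highest in mutant 1, the library where Cldn4 was highest. The summed ciliated markers were 257.7 CPM there, against 79.8 to 98.9 CPM elsewhere. Scgb1a1, the main club cell secretory protein gene, reached 7223 CPM there against 309.2 to 541.5 CPM. The 541.5 CPM belonged to wild type 1, the library where Cldn4 was lowest. The part of these cells in the Cldn4 level was not tested. Krt8, a keratin gene of the transitional state, stood at 219.5, 242.3 and 255.5 CPM in the mutants, against 183.4, 246.6 and 324.6 CPM in the wild types, and the groups overlapped. Krt8 differed between the groups by -0.07 ± 0.19 on the log2 scale.

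Of the other membrane proteins of the strand, Ocln, the gene of occludin, stood at 46.9, 54.0 and 53.5 CPM in the mutants, against 47.1, 58.9 and 58.5 CPM in the wild types. Again the number 1 library was the lowest of each group, and the groups overlapped. On the log2 scale the mutant differed by -0.09 ± 0.11 (95% interval -0.36 to 0.18). It was -0.191 without wild type 1 and -0.028 without mutant 1.

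Marveld2, which encodes tricellulin, the occludin relative at corners where 3 cells meet, is the next coding gene to Ocln in RefSeq. It stood at 28.7, 33.8 and 32.1 CPM in the mutants, against 30.7, 35.4 and 34.7 CPM in the wild types. Ocln exceeded Marveld2 per kilobase by a ratio of 1.23 to 1.35 in the 6 libraries. This ratio varied less than either gene, and the groups overlapped in it.

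F11r encodes junctional adhesion molecule A, an immunoglobulin-like protein that helps to place the polarity complex at the junction. It stood at 208.6, 198.8 and 220.8 CPM in the mutants, against 236.8, 223.1 and 222.1 CPM in the wild types. Each mutant lay below each wild type, but mutant 3 and wild type 3 differed by little more than 1 CPM. The log2 fold change was -0.12 ± 0.076 (95% interval -0.30 to 0.06), with an unadjusted p of 0.163 and an edgeR adjusted p of 0.767. It was -0.114 without mutant 1. F11r is also expressed by leukocytes and endothelium. All 8 leukocyte and 7 of 8 endothelial markers were highest in mutant 1. The leukocyte sum was 555.5 CPM there against 7.22 to 33.5 CPM, and the endothelial sum 272.7 against 191.9 to 219.0 CPM. F11r was highest in wild type 1. The part of these cells in the F11r level was not tested.

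Cldn7 and F11r were thus the 2 of 8 genes whose groups did not overlap, both lower in the mutant. Over all tested genes 11.7% did not overlap, 5.23% with the mutant higher and 6.43% with the mutant lower. The medians of the alveolar cell type markers were of similar size. All 9 AT2 markers had negative log2 fold changes (-0.206 to -0.044), with a median of -0.18 (-0.10 without mutant 1). Of 10 AT1 markers 9 had positive ones, with a median of 0.22 (0.21 without mutant 1), but single AT1 markers spread from -0.193 to 1.178. Without mutant 1, 8 of 9 AT2 markers were negative and 8 of 10 AT1 markers positive. None of these markers passed edgeR's test, and their part in the Cldn7 and F11r differences was not tested. Libraries also differed in the levels of long against short transcripts, as given below. The part of that in the Cldn7 and F11r differences was not tested either.

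Of the scaffolds, Tjp1, which links claudins and occludin to actin, stood at 267.9, 350.5 and 356.0 CPM in the mutants, against 254.9, 315.6 and 354.6 CPM in the wild types. It varied 1.40-fold between libraries, more than any of the other genes but Cldn4, and the groups overlapped throughout their range. On the log2 scale the mutant differed by 0.075 ± 0.16 (95% interval -0.30 to 0.45). It was 0.20 without mutant 1 and -0.045 without wild type 1, the number 1 libraries being the lowest of both groups.

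Tjp3, an epithelial scaffold related to Tjp1, had the narrowest range over the 6 libraries of the 8 genes. It stood at 94.4, 84.1 and 87.4 CPM in the mutants, against 91.0, 91.8 and 84.0 CPM in the wild types. The highest and lowest library differed 1.12-fold. The log2 fold change was -0.005 ± 0.078 (95% interval -0.19 to 0.18), and values without single libraries fell on both sides of 0, from -0.052 without mutant 1 to 0.027 without mutant 2.

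**Figure D3:**
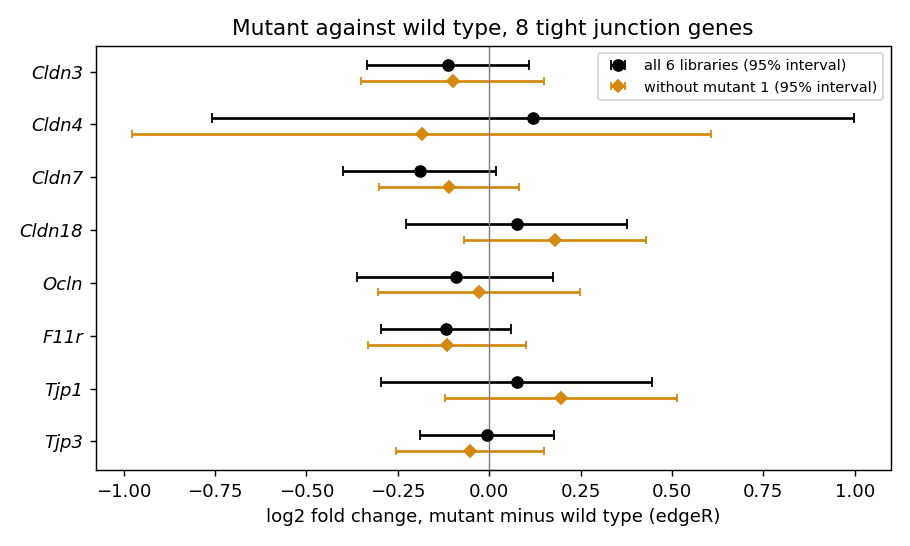
Log2 fold change of each of the 8 genes, mutant minus wild type, with 95% intervals from edgeR for all 6 libraries (black) and without mutant 1 (orange). All intervals include 0, the point for Cldn4 changes side without mutant 1, and Cldn18 and Tjp1 move from 0.075 to 0.18 and 0.20.

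The 8 genes did not vary together between libraries. Cldn18, Tjp1 and Ocln were low in both number 1 libraries and higher in the other 4, across the groups. Cldn3, F11r and Tjp3 did not follow them. The genes with the first pattern also have the longest exon models of the 8, at 4456 bases for Cldn18, 4222 for Ocln and 7109 for Tjp1, while the others have 1259 to 3142 bases. Libraries also differed in the levels of long against short transcripts. Among genes with a mean of at least 10 CPM, the longest quartile by exon length (over 5276 bases) differed from the shortest (up to 2279 bases) by a median log2 deviation of -0.136 in wild type 1, -0.040 in wild type 2 and 0.035 in wild type 3. In mutants 1, 2 and 3 it was -0.010, 0.095 and 0.055. In wild type 1 the deviations of Tjp1, Cldn18 and Ocln from their means over the 6 libraries were -0.30, -0.18 and -0.17, and in mutant 1, whose length shift was near 0, they were -0.23, -0.19 and -0.17. The lowest shifts were in wild types 1 and 2 and the highest in mutants 2 and 3. The shift was thus not balanced between the groups, though they overlapped in it. The part of this shift in the levels of single genes, or in the differences between the groups, was not tested.

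**Figure D4:**
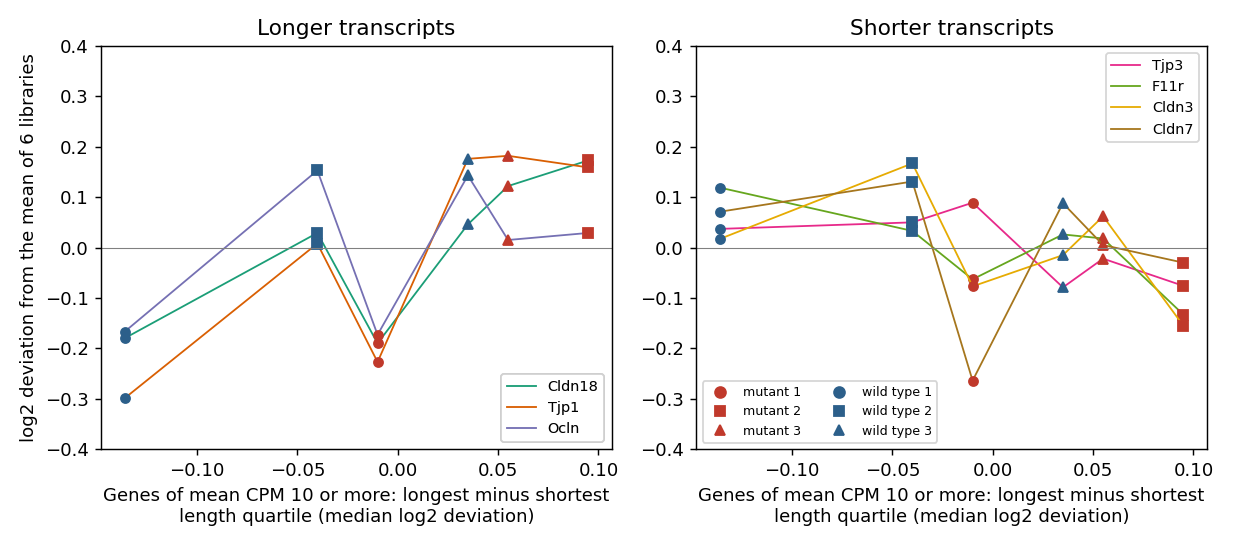
Deviation of 7 tight junction genes (Cldn4 is left out) from their mean over the 6 libraries, in log2 units, against the difference between the longest and shortest length quartiles of genes with a mean of at least 10 CPM in the same library. Cldn18, Tjp1 and Ocln (left) are lowest in wild type 1 and mutant 1, at x values of -0.136 and -0.010, while the shorter genes (right) keep within 0.17 of their mean except Cldn7 in mutant 1.

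The genes whose pattern was most like a member were sought over the 6 libraries among genes with a mean of at least 10 CPM, using Pearson's r of log2 values. For Cldn4 these were Fam49b (r = 0.993), 2410001C21Rik (r = 0.984) and Ccbl1 (r = 0.978), out of 8627 genes compared. For Cldn18 they were Gcc2 (r = 0.997), Vps35 (r = 0.995) and Gpbp1 (r = 0.995). With 6 libraries and this many genes, a high r is easily reached, and all of these genes were measured in the same libraries, with the depth, length and marker differences given above.

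The remaining claudins were mostly rare. Of 20 further claudin genes 6 had enough counts to test. None passed the test, and all but Cldn25 had a positive log2 fold change, with a median of 0.41, and of -0.009 without mutant 1. Leaving out that library turned the sign of Cldn10 and Cldn15, and the other 4 kept theirs. The most abundant, Cldn12, which lacks the usual claudin tail that binds zonula occludens proteins, averaged 60.5 ± 11.8 CPM (mutant) against 53.0 ± 5.22 CPM (wild type). The symbol Cldn25 averaged 34.5 ± 3.34 and 38.5 ± 1.04 CPM, but RefSeq lists that symbol as an older name of both Cldn25-ps and Cldnd1, so which gene was counted is not settled. Cldn8 averaged 5.74 ± 1.82 and 5.50 ± 0.941 CPM and Cldn23 1.36 ± 0.183 and 0.875 ± 0.549 CPM.

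Cldn10, a gene active in club cells, had 5.40 CPM in mutant 1, against 0.257 to 1.005 CPM elsewhere. Cldn15 had 4.39 CPM in that library and at most 1.14 CPM elsewhere. Cldn5, the claudin of endothelium, had 152 counts in mutant 1, and at most 0.458 CPM in any other library. On the log2 scale Cldn10 and Cldn15 differed by 1.52 and 1.42, and by -1.04 and -0.285 without mutant 1. Mutant 1 was also the library with the highest Pecam1, an endothelial marker, at 22.8 CPM against 1.07 to 2.02 CPM.

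Other tight junction proteins, including polarity and angulin genes, were examined as a list of 29. Of these, 27 were tested, none passed in either direction, and 9 were positive and 18 negative with a median of -0.07 (-0.02 without mutant 1). Cgn, the gene of cingulin, which binds zonula occludens 1 and myosin, averaged 110.2 ± 3.37 CPM (mutant) against 95.5 ± 3.82 CPM (wild type), with a log2 fold change of 0.21 ± 0.07 and an edgeR adjusted p of 0.737. Its groups did not overlap. In this list 2 genes did not overlap with the mutant higher and 2 with the mutant lower, out of 27 tested. Over all tested genes 11.7% did not overlap. Ybx3, the RNA- and DNA-binding protein that zonula occludens 1 holds at the junction, averaged 51.7 ± 4.96 against 60.8 ± 3.91 CPM. Ildr2, an angulin of tricellular junctions, was highest in mutant 1 (2.56 CPM), and averaged 0.30 ± 0.18 CPM in the wild types.

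Adherens junction and desmosome genes gave 17 tested of 18, with 6 positive, 11 negative, none past the threshold and a median of -0.07 (-0.02 without mutant 1). Epcam, an epithelial adhesion protein that binds claudin-7, averaged 176.3 ± 9.61 CPM (mutant) against 200.1 ± 3.33 CPM (wild type). Its mutant libraries stood at 178.7, 165.8 and 184.5 CPM and its wild types at 197.8, 203.9 and 198.5 CPM, so the groups did not overlap. The log2 fold change of Epcam was -0.18 ± 0.07 with an edgeR adjusted p of 0.737. Dsp, the gene of the desmosomal plaque protein desmoplakin, averaged 167.3 ± 5.19 against 149.9 ± 8.67 CPM, also without overlap but with the mutant higher. Of the 17 tested genes, 1 in each direction did not overlap, against 11.7% over all tested genes. Vcl (vinculin) averaged 118.8 ± 8.54 against 108.7 ± 3.61 CPM, and Ctnnb1 (β-catenin) 1604 ± 129 against 1827 ± 178 CPM.

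Regulators of epithelial junction programmes (transcription factors and the splicing regulators Esrp1 and Esrp2) gave 17 tested of 19, with 5 positive, 12 negative and none past the threshold (median -0.09, and -0.07 without mutant 1). Grhl2, an activator of claudin and cadherin genes, averaged 91.7 ± 3.45 CPM (mutant) against 101.6 ± 7.59 CPM (wild type). Its relative Grhl1 averaged 6.46 ± 0.258 against 4.72 ± 1.02 CPM. Foxa1, a factor of lung epithelium, averaged 91.9 ± 6.15 against 105.3 ± 9.81 CPM. Zeb2, a repressor of epithelial genes, reached 17.7 CPM in mutant 1, against 0.30 to 1.83 CPM elsewhere, and its log2 fold change of 2.43 turned to -0.965 without that library.

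Genes of the transitional alveolar state other than Cldn4 were divided, with 6 of 10 positive, 4 negative, none past the threshold and a median of 0.10 (0.03 without mutant 1). Plaur, the urokinase receptor gene, reached 23.5 CPM in mutant 1, against 1.202 to 2.57 CPM elsewhere. Lgals3 (galectin-3) averaged 75.7 ± 17.1 against 57.8 ± 15.1 CPM, the cell cycle inhibitor gene Cdkn1a 90.5 ± 16 against 124.5 ± 45.7 CPM, and the keratin gene Krt7 117.6 ± 10.1 against 107.8 ± 5.63 CPM.

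**Figure D5:**
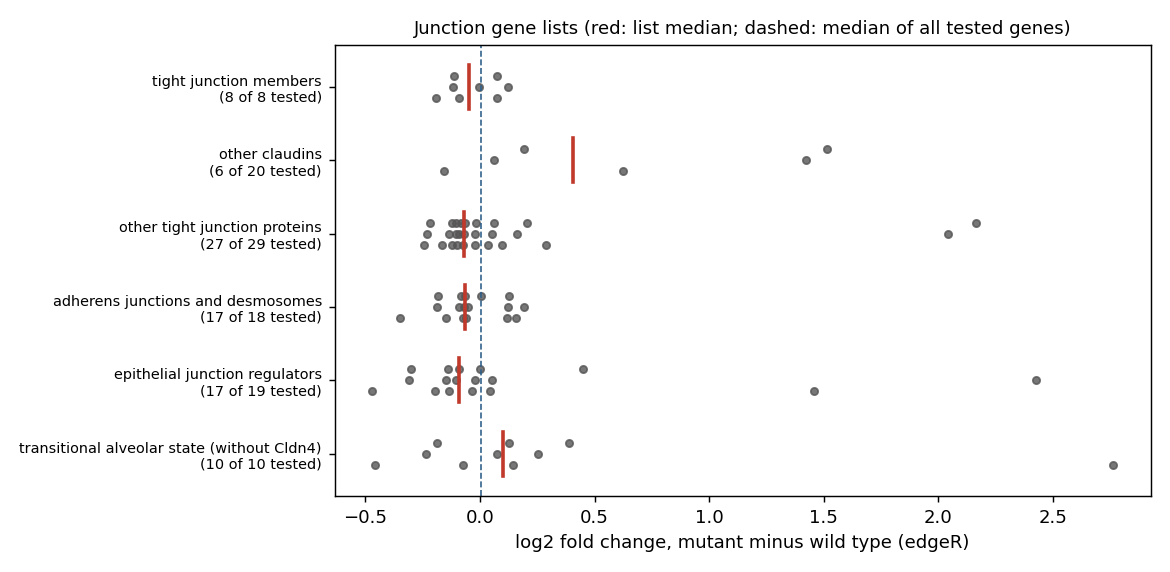
Log2 fold change, mutant minus wild type, of each tested gene of the tight junction set and of 5 related lists, with the list median in red and the median of all tested genes (0.005) as a dashed line. The 8 genes lie between -0.19 and 0.12, and the points above 1 in the other lists are genes that were highest in mutant 1.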

How the data were processed

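The authors deposited whole-number counts per gene symbol, 1 file per library (3 mutant, 3 wild type). Per the submitters' processing notes the build was mm9 and the tools were CASAVA and DESeq2. For the aligner, counting program, annotation and strand setting, a statement was not given in the sources used here, so reads shared with overlapping genes cannot be separated. Cldn3 and Tjp3 each share 40 exon bases with an opposite-strand gene (Wbscr25 and Apba3) in GENCODE M21.

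Counts were filtered with filterByExpr, scaled by TMM and tested with edgeR 4.0.16 in R 4.3.3 (quasi-likelihood, two-sided, mutant minus wild type, Benjamini-Hochberg adjustment over 12899 genes, threshold 0.05). Standard errors and 95% intervals came from that fit. The procedure was also run on simulated counts, in which all libraries shared the same mean levels apart from the planted changes. A library set apart like mutant 1 was not simulated, so that run cannot show how the test handles one. Marker sums and single marker genes are CPM of the library total. Per-kilobase levels used GENCODE M21 exon lengths on GRCm38. Alternatives used DESeq2 1.42.0, limma 3.58.1 and those named in the closing section.

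The members and lists were chosen with earlier results of these data known. Named were the 8 members, up to 4 genes per list by smallest p, claudins of mean CPM at least 1, and the 3 genes most like Cldn4 and Cldn18. Marveld2, Krt8, Cldn5, Pecam1, Xist and Ddx3y were named after their values were seen. A gene selected by this rule is not reported here. Of the junction lists, 8 symbols were matched through an older name.

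Same-numbered mutant and wild-type libraries deviated together from their group means (r = 0.278, 0.180 and 0.171), which met the rule for pairing (each over 0.1). Pairs of different number had r from -0.224 to 0.077. Deviations from a mean of 3 libraries sum to 0, so these r values are tied to each other. They were taken across genes, which are not replicates, so they do not establish a pairing. This pairing comes from the data, not from the labels. No 2 libraries of the same group agreed within sampling noise.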

Additional observations from a re-analysis of the deposited data

How the results depend on the processing

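None of the 8 genes passed the threshold under any of 16 alternatives each (DESeq2 or upper-quartile factors, no filter or 1 CPM in 3 libraries, DESeq2, limma-voom with quality weights, robust dispersion, the replicate block, each library left out, and, chosen after seeing the data, mutant 1 and wild type 2 left out together and DESeq2 without mutant 1), and the lowest adjusted p was 0.527. Of 128 such values 115 kept their sign. Cldn3, Cldn7, Cldn18 and F11r kept it in all 16. Cldn4 turned to -0.145 in limma-voom, to -0.182 in DESeq2 without mutant 1 and to -0.040 without mutant 1 and wild type 2. With single libraries left out it turned to -0.185 without mutant 1 and -0.148 without wild type 1, and stayed positive otherwise, up to 0.285. Tjp3 turned to 0.005 with upper-quartile factors and 0.002 with the 1 CPM filter, and ran from -0.052 to 0.027 with single libraries left out (0.005, 0.011, 0.015 and 0.027 where positive). With single libraries left out Tjp1 ran from -0.045 to 0.197 and Ocln from -0.191 to -0.028. Without mutant 1 and wild type 2 they stood at 0.220 and 0.033. The cause was not tested. The median of the 8 genes ran from -0.111 to -0.013 with single libraries left out. Over all genes, edgeR called 0 with all libraries and 0 or 1 with single libraries left out (1 without wild type 3), DESeq2 called 46, and DESeq2 without mutant 1 called 22. With the replicate block the median of the 8 genes was -0.046, Cldn7 had -0.194 and 0 genes were called over all genes, so the pairing changed no call. No scaling moved the median of all genes by more than 0.01 on the log2 scale. Depth limits Cldn4, with 61 to 231 counts per library, more than the other 7 genes. Its extreme libraries, mutant 1 and wild type 1, still differed by more than counting error.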
